A study of Mus musculus with 6 samples.

Results

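The 10 genes followed here act in zinc handling, and were measured in mesenchymal cells of the fetal mouse prostate exposed to estradiol (E2). They are the metallothioneins Mt1 and Mt2, the zinc-sensing transcription factor Mtf1, and the zinc transporters Slc30a1, Slc30a5, Slc30a7, Slc39a1, Slc39a6, Slc39a7 and Slc39a14. They were chosen by gene symbol in the array annotation, which gave 14 probe sets for the 10 genes among 22626 probe sets of the arrays. Urogenital sinus mesenchyme cells came from CD-1 male fetuses at gestation day 17 and were used at first passage. The 3 E2 samples received 100 nM E2 for 4 days and the 3 control samples received the ethanol vehicle. Both groups were kept in medium with stripped serum, insulin, transferrin, selenium and 690 pM dihydrotestosterone (DHT), and spent 3 days without estrogen before the treatment, so every value below was measured in the presence of an androgen. RNA was labeled and read on Affymetrix mouse expression arrays, where the fluorescence of a probe set measures the transcripts that its probes match.

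Metallothioneins are small, cysteine-rich proteins that bind zinc, copper and cadmium and buffer the free zinc of a cell. When zinc rises, MTF-1, the protein of Mtf1, binds metal response elements (MREs) in the promoters of Mt1, Mt2 and Slc30a1 and raises their transcription. Transporters of the Slc30 family (ZnT) carry zinc out of the cytosol, across the plasma membrane or into vesicles and the Golgi, and those of the Slc39 family (ZIP) carry it into the cytosol. The prostate is known for the high zinc content of its epithelium. In human breast cancer cells, SLC39A6 is a known estrogen-induced gene.

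The promoters of the metallothioneins and of Slc30a1 are shown because these are the members that MTF-1 is known to regulate. Each is the stretch of 250 bases before a RefSeq start site of GRCm38.p6, in lower case with MRE cores in capitals. An MRE core was searched as TGCACNC or TGCGCNC on both strands, and a core on the other strand therefore reads as its reverse complement.
Mt1, chr8:94178839-94179088, plus strand: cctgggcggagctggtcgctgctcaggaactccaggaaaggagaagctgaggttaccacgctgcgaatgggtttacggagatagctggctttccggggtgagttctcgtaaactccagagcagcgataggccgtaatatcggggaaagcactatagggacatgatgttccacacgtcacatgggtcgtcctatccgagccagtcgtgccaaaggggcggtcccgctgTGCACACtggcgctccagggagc
Mt2, chr8:94172368-94172617, plus strand: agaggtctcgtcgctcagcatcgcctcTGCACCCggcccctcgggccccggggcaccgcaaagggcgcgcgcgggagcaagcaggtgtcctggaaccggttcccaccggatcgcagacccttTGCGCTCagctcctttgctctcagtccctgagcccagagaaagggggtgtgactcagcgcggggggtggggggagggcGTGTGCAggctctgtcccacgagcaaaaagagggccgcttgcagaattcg
Slc30a1, chr1:191906531-191906780, plus strand: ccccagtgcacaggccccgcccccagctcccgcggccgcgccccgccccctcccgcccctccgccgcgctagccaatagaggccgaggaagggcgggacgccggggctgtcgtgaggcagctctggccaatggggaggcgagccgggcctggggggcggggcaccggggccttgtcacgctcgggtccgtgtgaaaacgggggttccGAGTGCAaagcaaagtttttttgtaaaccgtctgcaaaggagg
With the 50 bases after the start included, the window of Mt2 held 4 cores, that of Mt1 held 3 and that of Slc30a1 held 2. Of 32851 mouse promoter windows of this length, 25.7% held at least 1 core, 1.97% at least 3 and 0.517% at least 4. Windows were found for 8 members, and Slc39a6 and Slc39a14 had none in the table used. Slc30a5 had 1 core, and none was found for Mtf1, Slc30a7, Slc39a1 and Slc39a7. The palindromic estrogen response element GGTCANNNTGACC was in 0 of the 8 windows, and in 0.0700% of all windows. These matches describe letters in a window of fixed length. A start site in the table may lie apart from the one used in these cells, and more cores may lie outside the window. This holds for Mt1 above all. Its RefSeq gene record begins 206 bases before the start used here, inside the printed stretch, 2 of its 3 cores lie after that start, and its main start may lie further downstream, so that the printed sequence and the count apply to this start alone. The record of Slc30a1 begins 84 bases before its start, and that of Mt2 at its start.

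**Figure D1:**
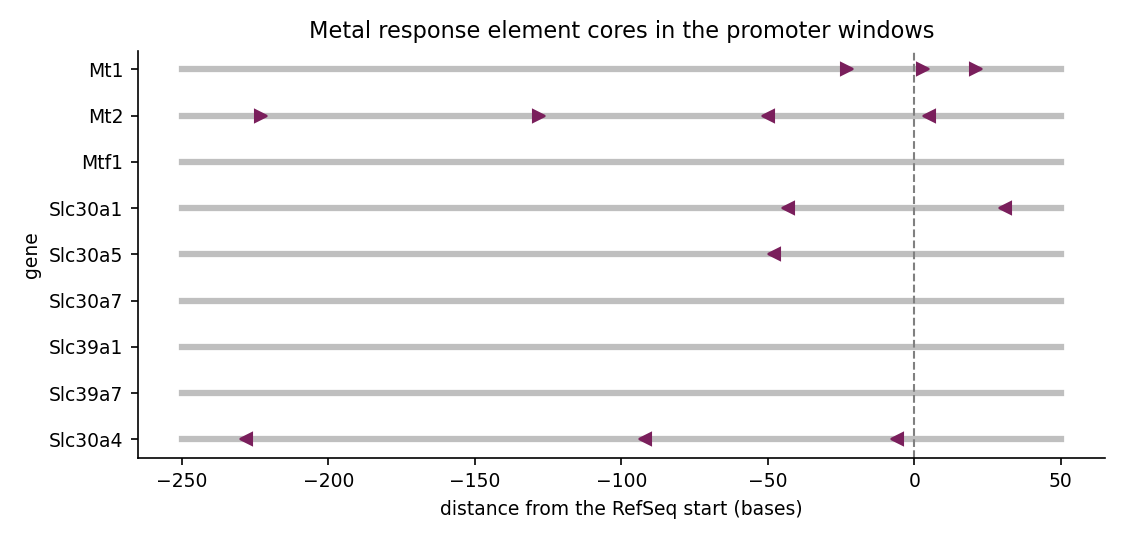
Position of MRE cores (triangles, pointing right on the strand of the gene and left on the other strand) in the promoter windows of 8 members and of Slc30a4, by distance in bases from the RefSeq start, dashed. Mt2 has 4 cores and Mt1 has 3, and 4 of the members shown have none.

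Before the members were compared, each array was scaled to its median signal. Array medians had been 13.7 to 21.8 units as deposited, and the scaled values are given in the same units. A probe set was tested where its mean was at least 10 units in the E2 or the control samples by the deposited values, which kept 14223 probe sets, 13 of the 14 member probe sets and all 10 members. E2 was compared with control on the log2 scale by limma, two-sided, with Benjamini-Hochberg adjustment over all probe sets tested and a threshold of 0.05. All 8 mesenchyme markers examined passed this filter and 0 of them were called, with 0 at an unadjusted p under 0.05 by the brightest probe set and 1, Pdgfrb, by a dimmer one (-0.40 on the log2 scale). Of 4 urogenital mesenchyme markers, 3 were found by symbol and tested (Hoxa13, Hoxd13 and Foxf1), with 0 called and 0 at an unadjusted p under 0.05. All 3 had positive log2 differences, with a median of 0.51. Their summed signal was 74.9 to 93.9 units in E2 arrays and 52.1 to 65.9 units in control arrays. Of 8 epithelial markers Krt8, Krt14, Krt18 and Krt19 passed the filter, and Cdh1, Epcam, Krt5 and Krt7 did not. By the deposited values, the 18S ribosomal RNA control probe set read 288 units in E2 replicate 2 and 281 units in control replicate 3. It read 22.8 to 44.7 units on the other arrays. Those 2 arrays of high 18S signal also had the lowest medians, 13.7 and 14.0 units, and were scaled up most. The sources state 3 samples per treatment without saying whether they were separate cell preparations, and the spread behind the p-values may therefore be technical. In a bulk RNA sample, fewer cells of a type and less RNA per cell cannot be told apart.

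Mt1 was lower in the cells treated with E2. Its probe set 1422557_s_at read 966, 767 and 870 units in E2 replicates 1 to 3, against 1368, 1152 and 1480 units in control replicates 1 to 3. All 3 E2 arrays lay below all 3 control arrays, the lowest E2 value being that of replicate 2 and the highest control value that of replicate 3. The means were 868 ± 99.2 units in E2 and 1333 ± 167 units in control (SD, n = 3 each). Mt1 fell by 0.62 on the log2 scale (SE 0.12, 95% interval -0.88 to -0.35, adjusted p = 0.0307 from limma), which left 0.651 of the control mean. It was the 1 member called of the 13 probe sets tested, in a comparison that called 0.253% of all probe sets lower and 0.492% higher. The suffix of this probe set marks probes that can match more than 1 transcript. Mt1 and Mt2 are closely similar genes that stand next to each other on chromosome 8, so signal shared between them was not separated here.

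Mt2, the other metallothionein that most cells express, showed a difference of similar size that did not pass the threshold. It read 457, 537 and 495 units in the E2 samples, against 694, 696 and 1089 units in the control samples. The groups did not overlap, and control replicate 3 stood above the other 2 control arrays. The means were 497 ± 39.8 units in E2 and 826 ± 227 units in control (SD, n = 3 each). On the log2 scale the difference was -0.70 (SE 0.16, 95% interval -1.04 to -0.37, adjusted p = 0.0630 from limma). Mt1 and Mt2 were the 2 member probe sets at an unadjusted p under 0.05, as were 4.55% of all probe sets in the same direction, and the 2 whose groups did not overlap, as were 8.49% of all probe sets in that direction. A second Mt1 probe set, 1451612_at, read 3.05, 6.94 and 5.66 units in E2 and 5.45, 3.05 and 11.2 units in control. Its mean was below 10 units in both groups, it was not tested, and its groups overlapped.

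**Figure D2:**
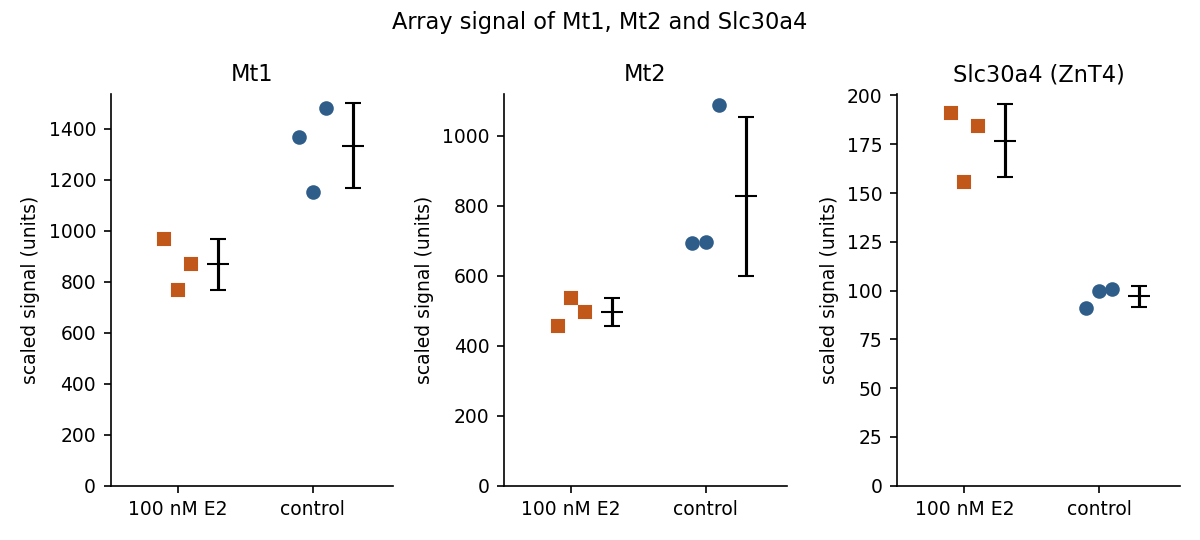
Scaled signal in units, from 0, of Mt1, Mt2 and Slc30a4 in cells with 100 nM E2 (squares) and control cells (circles), 1 point per array, with the mean and SD of the 3 arrays beside each group. The E2 arrays of Mt1 lie between 767 and 966 units and all control arrays between 1152 and 1480, and for Slc30a4 the E2 arrays lie above the control arrays.

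The call of Mt1 rested on every array but control replicate 2. Its adjusted p was 0.0600, 0.0767 and 0.117 without E2 replicates 1, 2 and 3, 0.139 and 0.143 without control replicates 1 and 3, and 0.0240 without control replicate 2 (limma). Without both arrays of high 18S signal, the log2 difference was -0.45 for Mt1 (adjusted p = 0.0691) and -0.55 for Mt2 (adjusted p = 0.0205 from limma), so that Mt2 and not Mt1 was then called. With the values as deposited neither was called (adjusted p = 1 for both from limma). Over 16 alternative settings the log2 difference stayed negative in all, from -0.72 to -0.45 for Mt1 and from -0.81 to -0.49 for Mt2, and 7 of the 16 called Mt1 and 4 called Mt2.

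**Figure D3:**
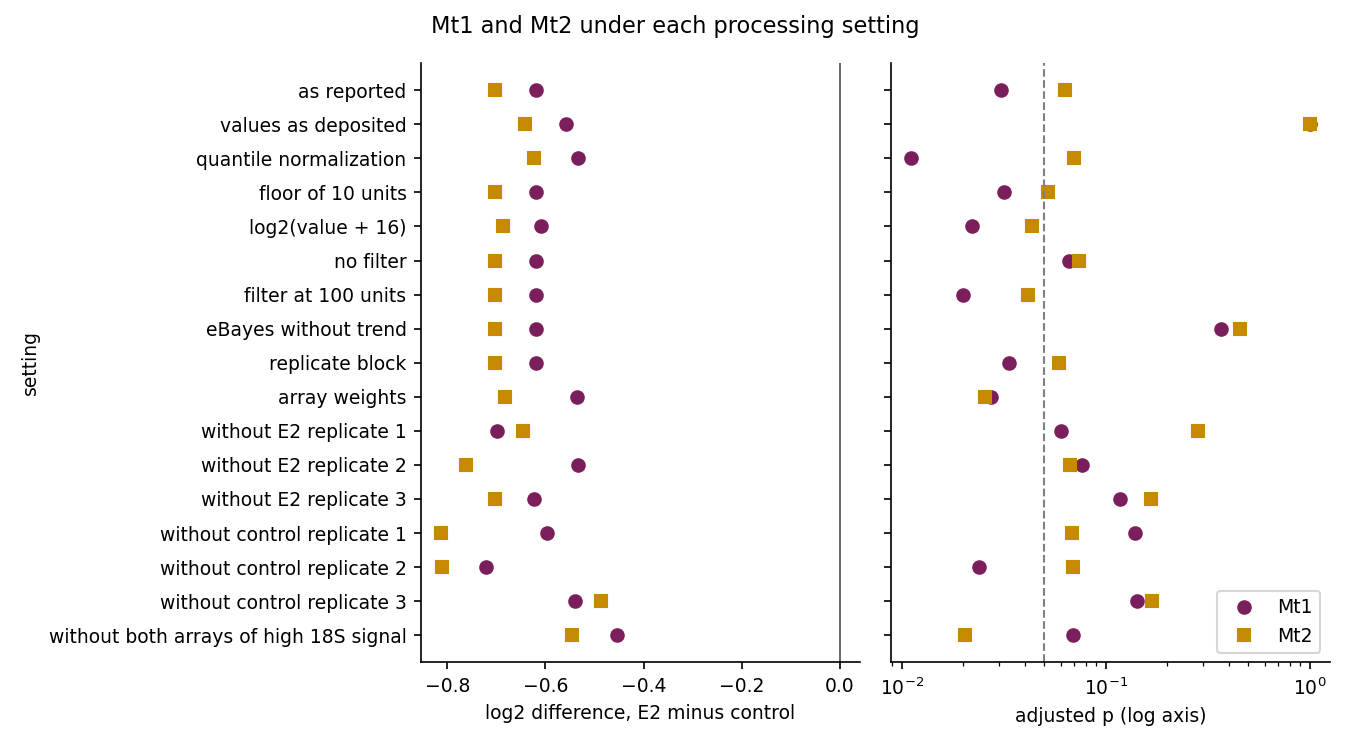
Log2 difference, E2 minus control (left), and adjusted p on a log axis (right) of Mt1 (circles) and Mt2 (squares) in the fit as reported and under 16 alternative settings, with a dashed line at 0.05. All differences lie between -0.81 and -0.45, while the adjusted p lies on both sides of the line.

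Markers of macrophages and leukocytes, cells that also carry metallothioneins, had differences in the same direction as Mt1 and Mt2. All 11 marker genes passed the filter and, by the brightest probe set, had negative log2 differences with a median of -0.47, against a median of -0.04 over all probe sets tested. Limma called 0 of the 11, and 3 had an unadjusted p under 0.05, as had 4.55% of all probe sets in the same direction. These were C1qb and C1qa, chains of complement C1q, and Tyrobp, a signaling adaptor of myeloid cells. C1qb read 25.1, 21.0 and 15.1 units in E2 and 31.6, 59.8 and 55.9 units in control, with no overlap. Its log2 difference was -1.24 (adjusted p = 0.0630 from limma), and 3 of 15 alternatives called it. The difference was -0.84 for C1qa and -0.49 for Tyrobp, with adjusted p of 0.375 and 0.575 from limma, and for both the groups did not overlap. Of all probe sets tested, 8.49% had E2 arrays below all control arrays. Dimmer probe sets of Csf1r and C1qb had positive differences of 0.90 and 0.68, with adjusted p of 0.587 and 0.858 from limma. That of Csf1r had an unadjusted p of 0.0366 from limma, and its E2 arrays lay above all control arrays. The groups overlapped in that of C1qb, and another dimmer probe set of Csf1r had a difference of -0.18. The summed signal of all probe sets of the 11 genes was 679 to 779 units in the E2 arrays and 721 to 1162 units in the control arrays, so that the groups overlapped. The part of these cells in the metallothionein difference was not tested.

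Mtf1, which encodes the factor that senses zinc and drives the metallothioneins, had low signal and no difference that passed. Probe set 1418333_at read 22.3, 20.7 and 24.5 units in E2 and 18.4, 22.8 and 22.8 units in control. The groups overlapped, with a log2 difference of 0.08 (SE 0.25, 95% interval -0.46 to 0.62, adjusted p = 0.966 from limma). The second probe set, 1429170_a_at, had means of 12.0 units in E2 and 10.1 units in control. Its log2 difference of 0.19 has an interval of -0.98 to 1.35, which holds a change as large as that of Mt1 in either direction.

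Slc30a1 (ZnT1), the plasma membrane exporter and a known MTF-1 target like the metallothioneins, had no difference that passed. It read 11.9, 14.4 and 12.7 units in E2, against 7.57, 2.85 and 12.2 units in control. The groups overlapped through control replicate 3, and the control mean of 7.56 units was below the 10 units of the filter. The fitted log2 difference of 1.01 therefore rests on signal near background (SE 0.59, 95% interval -0.25 to 2.28, adjusted p = 0.718 from limma). Slc30a1 passed the filter through the E2 samples, which favored a positive sign. The 15 alternatives that kept the gene reuse the same low values, so a sign shared by them adds no support. Their differences ran from 0.28 with a floor of 10 units to 1.48 without control replicate 3, and limma called the gene in 0 of them.

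The exporters of the secretory pathway were measured more closely. Slc30a5 (ZnT5), which loads zinc into the Golgi for enzymes such as alkaline phosphatase, read 106, 106 and 116 units in E2 and 89.6, 106 and 122 units in control. The log2 difference was 0.06 with a 95% interval of -0.27 to 0.39. Slc30a7 (ZnT7), which works beside it in the Golgi, read 62.4, 44.3 and 61.8 units in E2 and 53.0, 52.5 and 51.3 units in control, with a log2 difference of 0.09 and an interval of -0.31 to 0.48. For both genes the groups overlapped and the interval lay inside a 1.5-fold change in either direction.

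Among the importers, Slc39a6 (ZIP6) had 2 probe sets. The brighter one, 1424674_at, read 170, 162 and 199 units in E2 and 227, 189 and 183 units in control. The log2 difference was -0.17 (SE 0.14, 95% interval -0.47 to 0.13, adjusted p = 0.817 from limma), and the groups overlapped. The other, 1424675_at, read 89.1, 87.0 and 85.3 units in E2 and 84.6, 84.4 and 94.8 units in control, with a log2 difference of -0.01 and an interval of -0.32 to 0.30. For this gene both intervals had an upper end under a 1.5-fold increase.

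Slc39a7 (ZIP7), which releases zinc from the endoplasmic reticulum, read 357, 299 and 364 units in E2 and 372, 324 and 368 units in control. It was the most closely measured transporter, with a log2 difference of -0.06, an SE of 0.12 and a 95% interval of -0.33 to 0.20. Slc39a1 (ZIP1), an importer of the plasma membrane, varied widely between arrays. It read 73.1, 116 and 144 units in E2 and 49.1, 131 and 164 units in control, and replicate 1 was the lowest array of each group. Its log2 difference was 0.07 with an interval of -0.68 to 0.83, wide enough to hold a change as large as that of Mt1 in either direction.

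Slc39a14 (ZIP14), which also imports manganese and iron, had 2 probe sets whose estimates differed in sign. Probe set 1427035_at read 47.1, 44.5 and 67.5 units in E2 and 55.6, 48.3 and 69.7 units in control, with a log2 difference of -0.13 and an interval of -0.58 to 0.31. Probe set 1425649_at read 24.5, 25.5 and 30.3 units in E2 and 31.5, 23.8 and 12.5 units in control, with a log2 difference of 0.34 and an interval of -0.34 to 1.02. Control replicate 3 was the lowest array, and without it the difference was -0.04. Of the 7 member transporters, by the brightest probe set of each, 4 had a positive and 3 a negative difference, limma called 0, 0 had an unadjusted p under 0.05, and in 0 of their 9 probe sets were the groups apart. Slc30a1, which passed the filter through the E2 samples, is among the positive ones. Of the 13 member probe sets tested, 6 had an interval inside a 1.5-fold change, and these belong to Slc30a5, Slc30a7, Slc39a6, Slc39a7 and Slc39a14.

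**Figure D4:**
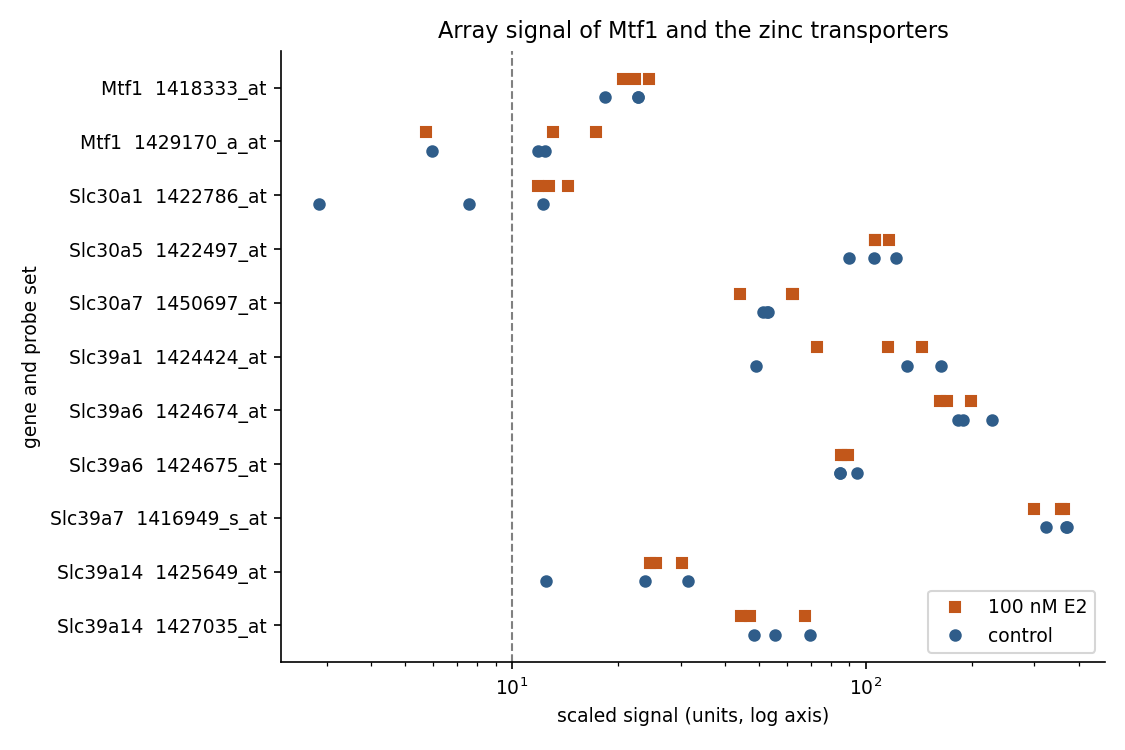
Scaled signal in units on a log axis of the probe sets of Mtf1 and the 7 member transporters, with E2 arrays (squares) above control arrays (circles) and a dashed line at 10 units. The groups overlap in every probe set shown, and 2 of the 3 control arrays of Slc30a1 lie below 10 units.

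The rest of the 2 transporter families and of the metallothioneins held a single call, and it was a rise, where 0.492% of all probe sets were called higher. Slc30a4 (ZnT4), which carries zinc into vesicles and is known for its part in zinc secretion into milk, read 191, 155 and 184 units in E2, against 91.0, 100.0 and 101 units in control. All E2 arrays lay above all control arrays. The means were 177 ± 18.9 units in E2 and 97.2 ± 5.39 units in control (SD, n = 3 each), with a log2 difference of 0.86 (SE 0.14, 95% interval 0.56 to 1.16, adjusted p = 0.00839 from limma). The call was lost without E2 replicate 1 (adjusted p = 0.0668), with the values as deposited (adjusted p = 1) and without a trend of the variance (adjusted p = 0.158 from limma), and held in the other 13 alternatives. Its promoter window held 3 MRE cores. The 8 epithelial markers had a summed signal of 140 to 153 units in E2 arrays and 62.4 to 121 units in control arrays, so that the groups did not overlap. Krt18 alone read 61.3 to 84.7 units in E2 arrays and 37.3 to 42.9 units in control arrays. Of the 4 genes not tested, all with means below 10 units, Cdh1, Epcam and Krt5 had higher means in E2, but for each the groups overlapped. The means of Cdh1 were 4.69 units in E2 and 4.08 units in control, and those of Krt5 7.35 and 6.63 units. Krt7 went the other way, with means of 1.41 units in E2 and 7.05 units in control, and its groups did not overlap. Of the dimmer Krt8 and Krt14 probe sets, which were not tested, only 1435989_x_at of Krt8 had a higher mean in E2. All 4 epithelial markers tested had positive log2 differences by the brightest probe set, with a median of 1.10. Of these, 2 had an unadjusted p under 0.05, as had 1136 of all 14223 probe sets tested, in either direction. Control means of Krt8, Krt14 and Krt19 were 6.46, 5.64 and 8.79 units, below the 10 units of the filter. These genes passed it through the E2 samples, which favored a positive sign, and their signal was near background. Krt18 was called at 0.87 (adjusted p = 0.0416 from limma), a call that 6 of 15 alternatives kept, with adjusted p from 0.00860 to 1. Krt19 had a difference of 1.38 (adjusted p = 0.504 from limma). Their part in the rise of Slc30a4 was not tested. Slc30a4 was not among the 10 members and comes from a list of the remaining family genes.

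Of the other 7 ZnT genes, 5 were found on the array by symbol and 3 passed the filter, with 1 rise, no fall and 2 that did not pass the test. Slc30a6 (ZnT6), the partner of ZnT5 in the Golgi, was among those that did not pass, with means of 99.7 ± 4.0 units in E2 and 105 ± 4.62 units in control (SD, n = 3 each). Of the other 10 ZIP genes, 6 were found on the array by symbol and 5 passed the filter, and limma called 0 of them, with 0 at an unadjusted p under 0.05 by the brightest probe set. Slc39a3 (ZIP3), an importer of the plasma membrane, had a log2 difference of -0.10 by its brightest probe set and of -0.59 by a dimmer one (95% interval -1.19 to 0.0046, adjusted p = 0.632 from limma). Slc39a9 had a difference of 0.19 with an SE of 0.21. The other metallothioneins on the array were at or near background. Mt3, known from brain, had means of 16.2 units in E2 and 13.2 units in control with an SE of 0.58 on the log2 difference, and Mt4, known from stratified epithelium, was below 10 units in all samples and not tested.

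**Figure D5:**
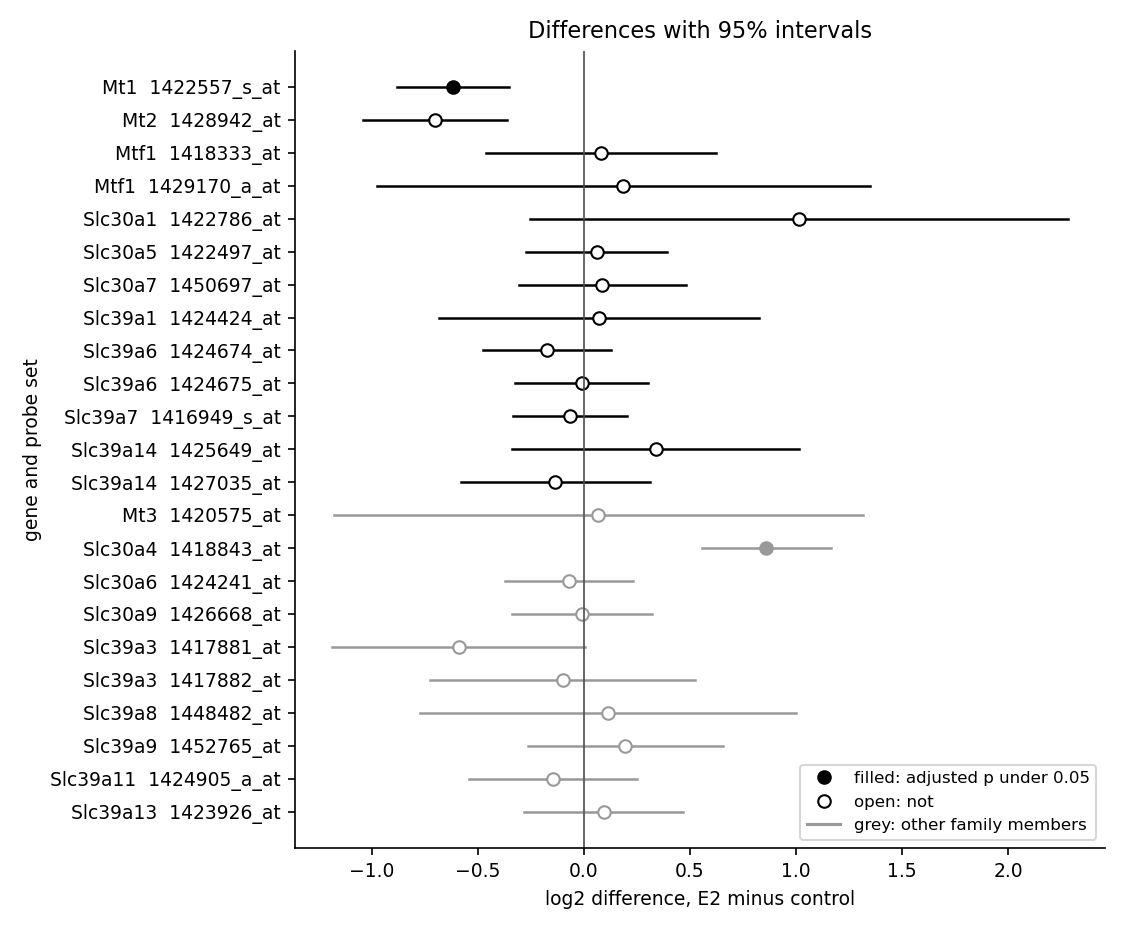
Log2 difference, E2 minus control, with its 95% interval from limma, for the 13 member probe sets tested (black) and the other ZnT, ZIP and metallothionein probe sets tested (grey). Filled points, those of Mt1 at -0.62 and Slc30a4 at 0.86, had an adjusted p under 0.05.

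Further genes that MTF-1 is known to regulate in mouse cells were not called. Of 5 such genes, Gclc, Ndrg1, Csrp1, Selenow and Pgf, all passed the filter, limma called 0, 0 had an unadjusted p under 0.05 by the brightest probe set, and their median log2 difference was -0.07. Gclc, the catalytic subunit of the enzyme that starts glutathione synthesis, read 36.7, 33.8 and 31.8 units in E2 and 52.2, 40.9 and 43.2 units in control. The groups did not overlap, as in 8.49% of all probe sets in that direction. The log2 difference was -0.41 (SE 0.19, 95% interval -0.82 to 0.0045, adjusted p = 0.632 from limma). A dimmer probe set of Gclc had a difference of -0.32 (adjusted p = 0.831 from limma), and its groups overlapped. Csrp1, a LIM protein of the actin cytoskeleton, had a log2 difference of -0.10 by its brightest probe set and of -0.26 by the other, the 1 probe set of the 12 of this list at an unadjusted p under 0.05 (adjusted p = 0.587 from limma). The groups of this Csrp1 probe set did not overlap. Of all probe sets tested, 4.55% were lower at such a p. Ndrg1, a stress-responsive gene, had a log2 difference of 0.27 with an SE of 0.16.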

How the data were processed

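The 6 samples of cultured urogenital sinus mesenchyme, 3 treated with E2 and 3 controls, were grouped by their titles. The authors deposited linear intensity values, made from the scanned images with the Affymetrix programs GeneChip Operating Software and Expression Console. The sources used here name no version, signal algorithm or scaling. Because the array medians differed, each array was divided by its median and multiplied by the mean of the 6 medians. A gain that differs between arrays would otherwise enter every fold change.

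The table held 22690 probe sets, of which 64 Affymetrix controls were left out. Symbols came from the platform annotation. The fit used R 4.3.3 and limma 3.58.1 (lmFit, and eBayes with a variance trend), and was tested on simulated data. In lists, the probe set of highest mean log2 signal stands for its gene. Promoters came from RefSeq tables of GRCm38.p6, and no build is named for the arrays. Named are all members, and in each further list any gene past the threshold and up to 3 with the smallest p. This rule did not cover the cell type markers, and those named, as well as Alpl, were chosen after their values were seen. Members and lists were chosen with earlier results of these data known. Alternatives covered scaling, low values, filter, variance, array weights, replicate block and arrays left out. With arrays there is no read depth, and the precision is limited by their number.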

Additional observations from a re-analysis of the deposited data

How the results depend on the processing

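Over the alternatives run, Mt1 and Mt2 kept their direction. Mt1 lost its call with the values as deposited (-0.56), without a filter (-0.62), without a variance trend (-0.62) and without the 2 arrays of high 18S signal (-0.45). Mt2 gained a call with log2(value + 16) (-0.69), a filter at 100 units (-0.70), array weights (-0.68) and without both 18S arrays (-0.55). With 1 array left out, the differences were -0.72 to -0.53 for Mt1 and -0.81 to -0.49 for Mt2. Member probe sets called lower were 1 as reported, 0 with the values as deposited, without a filter and without a trend, 2 with log2(value + 16), a filter at 100 units and array weights, and 0 to 1 with 1 array left out. Over all genes, the 70 probe sets called higher and 36 lower became 39 and 7 as deposited, 15 and 1 without a trend, and 112 and 70 with array weights, 41 were higher with a filter at 100 units, and with 1 array left out 37 to 75 were higher and 11 to 31 lower.

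Small differences that did not pass changed sign. Slc39a6 (1424675_at) was at 0.050 as deposited, 0.031 with quantile normalization, 0.0021 with array weights and 0.045 without both 18S arrays, and Slc39a7 at 0.0065 with array weights and 0.054 without both 18S arrays. Without these 2 arrays Slc39a14 was at -0.0064 and 0.12 by its probe sets, and Mt3 was at -0.34, and at -0.15 with array weights. With 1 array left out, the ranges that crossed 0 were -0.040 to 0.044 for Slc39a6 (1424675_at), -0.13 to 0.025 for Slc39a7, -0.45 to 0.41 for Slc39a1, -0.055 to 0.17 for Slc30a5, -0.32 to 0.0073 and -0.039 to 0.63 for Slc39a14, -0.023 to 0.14 and -0.16 to 0.65 for Mtf1, -0.36 to 0.24 for Slc39a3 and -0.46 to 0.79 for Mt3. The cause was not tested.

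The replicate numbers are shared by both groups, but no source ties same-numbered samples together, and the deviations of same-numbered samples correlated at 0.0078, -0.053 and -0.058. With the replicate block, 61 probe sets were called higher and 27 lower, and Mt1 (adjusted p = 0.0334) and Mt2 (0.0591 from limma) stayed on their side of the threshold. Signal near background limits Slc30a1, the second Mtf1 probe set and Mt3.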

Other observations

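Further gene groups with ties to metallothioneins were read in the same fit. Glucocorticoids are a known inducer of metallothioneins, and of 11 glucocorticoid-responsive genes 10 passed the filter. By the brightest probe set limma called 0 of them, 1 was higher and 2 were lower at an unadjusted p under 0.05, and the median log2 difference was -0.04, against -0.04 over all probe sets tested. Of all 14223 probe sets tested, 1136 had such a p in either direction. Fkbp5, a co-chaperone of steroid receptors, read 72.9, 57.9 and 72.0 units in E2 and 109, 104 and 84.2 units in control. The groups did not overlap, as in 8.49% of all probe sets in that direction. Limma gave a difference of -0.55 on the log2 scale (SE 0.17, adjusted p = 0.268), and -0.83 and an adjusted p of 0.0752 by a dimmer probe set. Cebpd, a transcription factor of acute-phase and adipocyte genes, had means of 92.8 ± 20.4 units in E2 and 129 ± 16.3 units in control (SD, n = 3 each) and a log2 difference of -0.50 (adjusted p = 0.422 from limma). Errfi1, a feedback inhibitor of the EGF receptor, read 269, 231 and 285 units in E2 and 162, 186 and 174 units in control. Its difference was 0.59 by the brightest probe set (adjusted p = 0.0630 from limma) and 0.84 by a dimmer one (adjusted p = 0.0228), and the dimmer one was called in 9 of 16 alternatives.

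Metallothioneins also bind copper. Of 9 genes of copper handling 8 passed the filter, limma called 0, 1 was lower at an unadjusted p under 0.05, and the median log2 difference was -0.09. That gene was Slc31a2 (CTR2), a copper transporter of endosomes and lysosomes. Of all probe sets tested, 4.55% were lower at such a p. Both probe sets of Slc31a2 had E2 arrays below all control arrays, as had 8.49% of all probe sets. The brighter one read 31.9, 36.2 and 44.3 units in E2 and 57.1, 52.0 and 55.0 units in control. The log2 differences were -0.56 and -0.66, with adjusted p of 0.374 and 0.247 from limma, and 0 of 15 alternatives called either.

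Zinc reaches ectoenzymes such as alkaline phosphatase through ZnT5 and ZnT7. Of 4 genes of zinc ectoenzymes 2 were found on the array by symbol. Alpl, the alkaline phosphatase of bone and many other tissues, was below 10 units in all samples and not tested, and Enpp3 was tested and not called.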
